A study of Homo sapiens with 12 samples.

Results

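The SPARC family was followed in cells and xenograft tumours of NCI-H1299, a human line from a non-small cell lung cancer. The family was taken as 8 genes, SPARC, SPARCL1, SPOCK1, SPOCK2, SPOCK3, SMOC1, SMOC2 and FSTL1, and a probe set counted as a member when the array annotation gave it 1 of these symbols and no other. That gave 8 of the 19775 genes named on the array and 17 of the 54613 probe sets outside its controls, 2 for SPARC and 15 for its 7 relatives. SPARC was selected on its levels in these arrays, high in tumours from parental cells and low elsewhere, so its values are given as a description with no test. The relatives were taken by family and were tested.

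There were 4 groups of 3 Affymetrix arrays: xenograft tumours from spheroid cells, xenograft tumours from parental cells, spheroid cells in culture and parental cells in culture. The parental cells grew in a medium with serum. The spheroid cells, which the series calls cancer stem cells, were the floating cells that came from attached cultures after 7 to 10 days in a stem-cell medium. All 4 groups come from the same line, and the host of the xenografts is not stated in the labels. The titles call the arrays of a group biological replicates. The labels do not say whether the 3 tumours of a group grew in separate animals, so a p-value here covers the spread among these arrays only, which may be technical in part.

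SPARC (secreted protein acidic and rich in cysteine, also osteonectin) is a matricellular protein: it sits in the extracellular matrix, binds collagen and calcium, and tunes how cells attach and spread, without being a structural fibre itself. Its relatives share a follistatin-like domain, and most of them share the calcium-binding domain that gives SPARC its hold on collagen. In many carcinomas SPARC protein is known mainly from the stroma around the tumour cells.

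The deposited values are log2 expression values. The arrays' medians lay between 5.85 and 6.03 and their lower quartiles between 4.63 and 4.80, and a probe set under the lower quartile of its own array is called dim here, since no detection calls were used. The parental culture arrays were uneven in their RNA control readings: for the 5' end of 18S RNA, replicate 1 gave 6.96 and replicate 2 gave 10.50, while the remaining 10 arrays of the study lay at 12.21 to 13.34. Replicate 1 also had the widest gap between the 3' and 5' probe sets of GAPDH, 0.49, against 0.03 on replicate 2 and 0.02 to 0.13 on the other 10 arrays. For actin this gap was 0.78 on replicate 1, 0.38 on replicate 2 and 0.18 to 0.77 on the other 10, so replicate 2 stood apart in 18S and not in these gaps. A tumour is a mixture, and in such bulk samples fewer cells of a type and less RNA per cell cannot be told apart.

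The promoters of SPARC, FSTL1 and SPARCL1 are shown because these are the member with the tumour pattern, the relative that changed, and the closest relative of SPARC. Each is 300 bases of the RefSeq annotation on GRCh38.p14, from 250 bases before the start to 50 after it, in the direction of the gene. They lie at chr5:151686866-151687165, chr3:120450943-120451242 and chr4:87529327-87529626, all on the minus strand. Capitals mark matches, on either strand, to the motifs named after the sequences.
SPARC: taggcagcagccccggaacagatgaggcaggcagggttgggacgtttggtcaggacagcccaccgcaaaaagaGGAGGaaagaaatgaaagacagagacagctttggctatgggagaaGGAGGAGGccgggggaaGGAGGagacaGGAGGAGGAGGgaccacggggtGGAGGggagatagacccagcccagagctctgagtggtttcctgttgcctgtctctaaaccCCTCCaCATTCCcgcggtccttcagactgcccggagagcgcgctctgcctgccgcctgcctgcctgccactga
FSTL1: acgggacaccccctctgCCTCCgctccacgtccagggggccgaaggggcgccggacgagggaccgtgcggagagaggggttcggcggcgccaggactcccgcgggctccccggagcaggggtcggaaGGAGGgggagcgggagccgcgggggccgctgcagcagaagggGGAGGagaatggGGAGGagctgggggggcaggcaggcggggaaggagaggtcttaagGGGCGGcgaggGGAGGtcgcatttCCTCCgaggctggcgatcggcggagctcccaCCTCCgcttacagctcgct
SPARCL1: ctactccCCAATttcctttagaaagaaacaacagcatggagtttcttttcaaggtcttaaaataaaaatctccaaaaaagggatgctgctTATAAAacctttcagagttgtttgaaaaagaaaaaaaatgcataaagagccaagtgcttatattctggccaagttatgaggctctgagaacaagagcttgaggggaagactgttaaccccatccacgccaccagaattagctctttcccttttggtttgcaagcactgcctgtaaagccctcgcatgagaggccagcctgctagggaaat
The SPARC window held 9 GGAGG matches, more than 98.4% of the 35116 promoters of the same length, and 1 match to GGAATG. The FSTL1 window held 7 GGAGG matches, more than 95.8% of them, and 1 to GGGCGG. The SPARCL1 window held no GGAGG, but 1 TATAAA and 1 CCAAT. The median promoter had 2 GGAGG matches, each overlapping match counted, and 77.4% had at least 1. At least 1 match to GGGCGG was held by 45.0% of the promoters, to CCAAT by 34.6%, to GGAATG by 14.0% and to TATAAA by 11.5%. Of the other motifs searched, CAGGTG (in 20.6% of promoters) was in none of the 3 windows, and TGANTCA (in 7.71%) was in none either. The SPARC window had 11 CpG dinucleotides, the FSTL1 window 30 and the SPARCL1 window 2, against a median of 14. The motifs were picked after expression values had been seen, and a match is a description of letters and not a binding site. Of the 8 genes, 7 had a promoter in the RefSeq table used here, and SPOCK1 is named only.

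SPARC stood apart in the 3 tumours from parental cells. Its probe set 200665_s_at read 4.48, 4.80 and 4.85 in spheroid xenografts and 8.90, 8.98 and 9.01 in parental xenografts. In culture it read 4.40, 4.56 and 4.51 in spheroid cells and 4.64, 4.96 and 4.83 in parental cells. All 3 parental xenografts lay above the other 9 arrays, which ran from 4.40 to 4.96, and the gap of 3.94 on the log2 scale lies between the lowest of the 3 and the highest of the 9. The group means were 4.71 ± 0.20 in spheroid xenografts, 8.96 ± 0.06 in parental xenografts, 4.49 ± 0.08 in spheroid culture and 4.81 ± 0.16 in parental culture (SD, n = 3 each). The SD of the parental xenografts was the smallest of the 4 groups. On 5 arrays of the 9, among them all 3 of spheroid culture, the probe set was dim, and on none of the parental xenografts. The low groups thus lie close to the floor of the arrays, so the differences may understate the size and no fold is given.

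The spheroid minus parental difference of 200665_s_at was -4.25 in xenografts, and parental xenografts were 4.15 above parental culture. In culture the difference was -0.32, with no overlap between the groups, at a level close to the lower quartile of the arrays. Groups that do not overlap were common among all probe sets, at 12.3% in the culture comparison. Spheroid xenografts and spheroid culture overlapped and differed by 0.22. The spheroid minus parental difference in xenografts less that in culture was -3.93.

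The other probe set, 212667_at, also stood highest in the parental xenografts. It read 4.34, 4.42 and 4.15 in spheroid xenografts and 5.38, 6.70 and 5.53 in parental xenografts. In culture it read 4.18, 4.50 and 4.24 in spheroid cells and 4.24, 4.19 and 4.33 in parental cells. The parental xenografts were again above all other arrays, and outside them the probe set was dim on all 9 arrays. The difference was -1.57 between spheroid and parental xenografts and 1.62 between parental xenografts and parental culture. With the low side dim on every array, both differences may understate the change, and their size is not set against that of 200665_s_at. Parental xenograft replicate 2 was the highest, and without it these differences were -1.15 and 1.20. Both probe sets followed each other over the 12 arrays with r = 0.908, which rests on the 3 high arrays. How each maps on the SPARC transcripts was not examined.

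**Figure D1:**
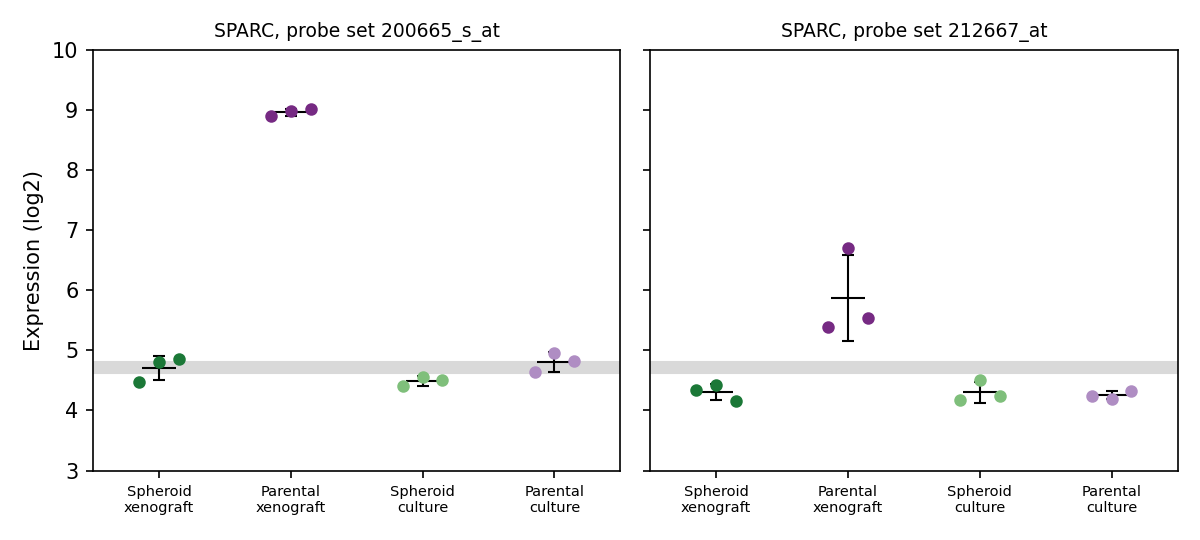
Log2 expression of the SPARC probe sets in the 4 groups, 1 point per array, with mean and SD in black and the arrays' lower quartiles as a grey band. The parental xenografts sit at 8.90 to 9.01 in the left panel and 5.38 to 6.70 in the right one, above every other array.

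FSTL1 (follistatin-like 1), a secreted glycoprotein that binds bone morphogenetic proteins and modulates their signalling, was the one relative with a change that passed the test, and its high values were those of parental cells in culture. Probe set 208782_at read 5.10, 4.71 and 4.75 in spheroid xenografts and 5.17, 5.19 and 5.57 in parental xenografts. It read 5.62, 5.35 and 4.87 in spheroid culture and 6.48, 8.11 and 6.86 in parental culture. All 3 parental cultures lay above the other 9 arrays, and replicate 2 was the highest of them. FSTL1 was lower in spheroid than in parental culture, with a log2 difference of -1.87, 3.66-fold (SE 0.35, 95% interval -2.64 to -1.10, limma adjusted p = 0.0286). It was also lower in parental xenografts than in parental culture, with a difference of -1.84, 3.58-fold (SE 0.35, 95% interval -2.61 to -1.07, adjusted p = 0.0225). These comparisons share the parental culture arrays. The groups did not overlap in either, as in 12.3% and 13.1% of all probe sets.

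Between spheroid and parental xenografts FSTL1 differed by -0.46 (95% interval -1.23 to 0.31, adjusted p = 1.00), although the groups did not overlap, as in 14.3% of all probe sets. Spheroid xenografts against spheroid culture gave -0.43 (adjusted p = 0.875). The difference of the spheroid effect between tumours and culture was 1.41 (SE 0.50, 95% interval 0.33 to 2.50), with an unadjusted p of 0.0152 and an adjusted p of 0.597, which does not pass over all probe sets. The culture call was lost with only the arrays compared in the fit (adjusted p = 0.230), with the mean of all FSTL1 probe sets (-0.58, adjusted p = 0.115), and without parental culture 3, spheroid culture 2 or 3 or spheroid xenograft 2 or 3 (adjusted p 0.0509 to 0.129). The parental tumour call was lost with only the arrays compared (0.175), with the mean of all probe sets (-0.64, 0.0687) and without parental culture 3 or parental xenograft 1 or 2 (0.0521 to 0.0827). Without parental culture 1 and 2, whose RNA readings stood apart, the differences were -1.59 and -1.55 and both calls held, at 0.049 and 0.032.

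The probe sets of FSTL1 disagreed. Both others, 240891_at (5.01 to 6.13) and 230744_at (4.20 to 4.83, dim on 11 of 12 arrays), had culture differences of 0.15 and -0.01 (adjusted p 0.906 and 0.991). The change therefore rests on 208782_at alone.

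**Figure D2:**
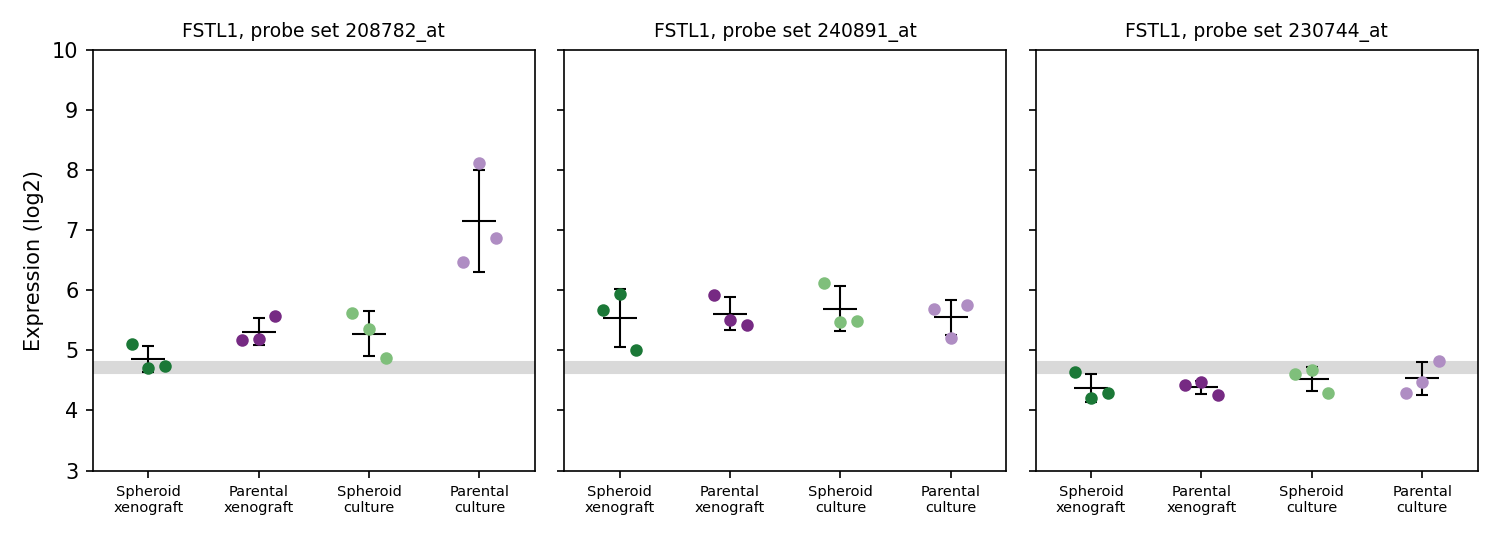
Log2 expression of the 3 FSTL1 probe sets in the 4 groups, 1 point per array, with mean and SD in black and the arrays' lower quartiles as a grey band. Only in the left panel (208782_at) do the parental cultures, 6.48 to 8.11, lie above all other arrays.

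The other relatives gave no call. Over the 15 relative probe sets, 1 was called lower in spheroid than in parental culture (background 1.23% of all probe sets in either direction, 0.822% lower), 0 between spheroid and parental xenografts (background 0.0897%), 1 lower in parental xenografts than parental culture (background 2.34% in either direction, 0.818% lower), 0 between spheroid xenografts and spheroid culture (0.253%) and 0 in the interaction (0.0732%). The 0.253% stands for 138 probe sets called, and with the replicate number as a block 81 were called in that comparison, again with 0 relatives. Both called were FSTL1 208782_at. Limma's unadjusted p was under 0.05 for 1, 0, 1, 0 and 1 of the 15. The median differences of the 15 were 0.06, 0.03, -0.01, -0.01 and 0.00, against 0.06, 0.02, 0.00, -0.04 and -0.04 over all probe sets.

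SPARCL1 (hevin), the relative closest to SPARC in sequence and known from brain and blood vessels, gave 4.25 to 4.91 and was dim on 9 arrays. It read 4.85, 4.71 and 4.56 in spheroid xenografts and 4.40, 4.71 and 4.91 in parental xenografts, which overlapped. Among the testicans, secreted proteoglycans of the brain and other tissues, SPOCK1 read 4.32 to 5.11 (dim on 5 arrays). SPOCK2 read 6.97 to 7.51 with probe set 202523_s_at and 6.12 to 7.06 with 202524_s_at and was dim on no array. Of the 4 SPOCK3 probe sets, 3 were dim on all 12 arrays and 206433_s_at on 11. For SMOC1 and SMOC2, basement membrane proteins with the same calcium-binding domain, the results differed by probe set. SMOC1 read 7.40 to 7.99 with 222784_at, but 4.55 to 5.39 with 222783_s_at. SMOC2 read 4.99 to 5.80 with 243946_at and was dim on all 12 arrays with 223235_s_at. In these 12 probe sets together with 230744_at and 240891_at, the differences ran from -0.29 to 0.28 over the 4 pairwise comparisons, with 95% intervals between -0.74 and 0.76 and no adjusted p below 0.688. In the interaction they ran from -0.28 to 0.25, with intervals between -1.04 and 0.84.

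**Figure D3:**
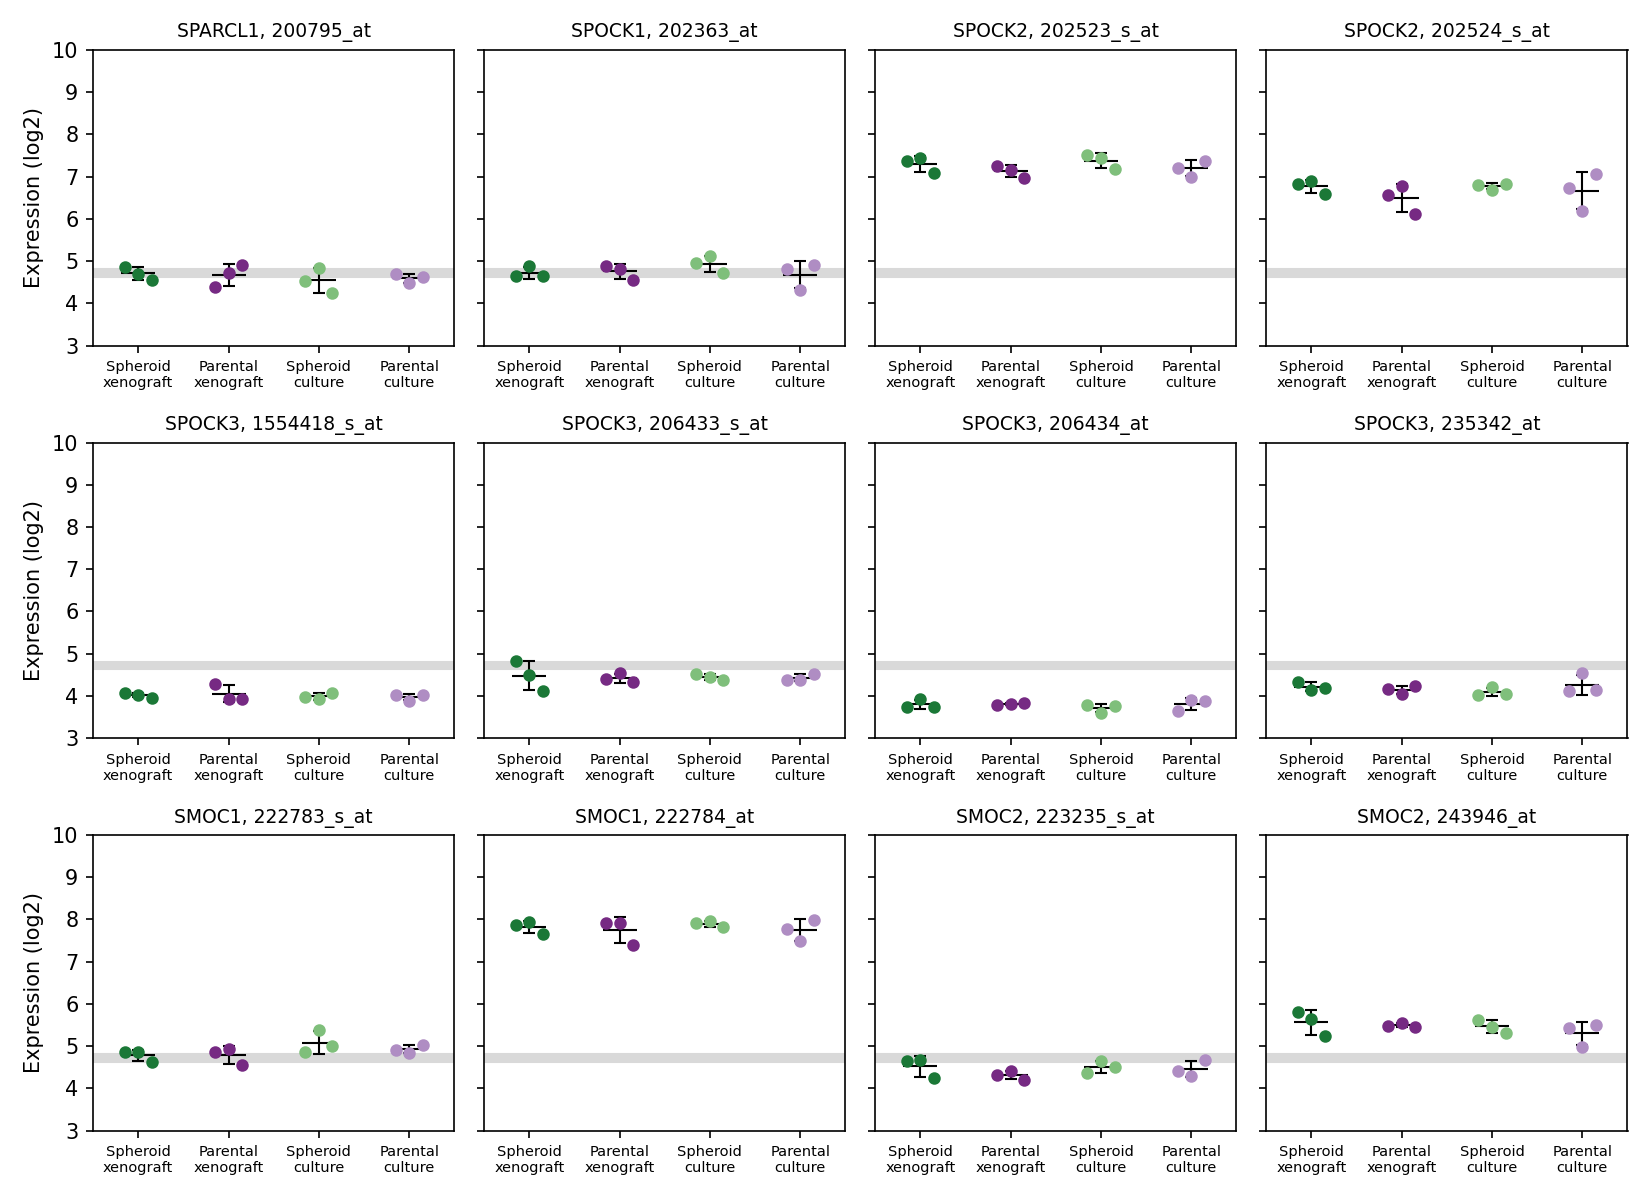
Log2 expression of the SPARCL1, SPOCK and SMOC probe sets in the 4 groups, 1 point per array, with mean and SD in black and the arrays' lower quartiles as a grey band. In all 12 panels the groups of each pairwise comparison overlap, and SPOCK2 (both probe sets), SMOC1 222784_at and SMOC2 243946_at lie above the band on every array.

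Genes with a pattern like SPARC 200665_s_at were named among 272 genes whose group means spanned at least 2 log2 units. The 8 with the highest Pearson r over the 12 arrays were KCNJ2 (0.914), MGP (0.910), PTGER4 (0.906), ROBO1 (0.900), ITGB8 (0.898), FN1 (0.867), FAP (0.867) and SCG2 (0.858), and the next had 0.857. The arrays fall into 4 groups, so these values follow mostly the parental xenografts, and they carry no p. In all 8 the lowest parental xenograft lay above every other array, as in SPARC, and ROBO1 alone was also among the 8 highest by Spearman's rho. MGP, matrix Gla protein, a matrix inhibitor of calcification, averaged 7.11 ± 1.06 in spheroid xenografts, 12.08 ± 1.67 in parental xenografts, 5.75 ± 0.64 in spheroid culture and 5.38 ± 0.64 in parental culture. FN1, fibronectin, averaged 9.01 ± 0.82 in spheroid xenografts, 12.85 ± 0.81 in parental xenografts, 8.82 ± 1.93 in spheroid culture and 8.83 ± 0.39 in parental culture. KCNJ2, an inward rectifier potassium channel, averaged 4.81 ± 0.26 in spheroid xenografts, 8.92 ± 0.91 in parental xenografts, 4.84 ± 0.24 in spheroid culture and 6.21 ± 0.44 in parental culture. FAP, fibroblast activation protein, a surface protease, averaged 5.92 ± 0.04 in spheroid xenografts, 7.27 ± 0.43 in parental xenografts, 5.66 ± 0.20 in spheroid culture and 5.07 ± 0.33 in parental culture (SD, n = 3 each). The others are PTGER4, a prostaglandin receptor, ROBO1, a receptor for Slit proteins, ITGB8, an integrin chain, and SCG2, a secretory granule protein. The parental xenografts ranged from 10.43 to 13.78 in MGP, and from 8.90 to 9.01 in SPARC.

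**Figure D4:**
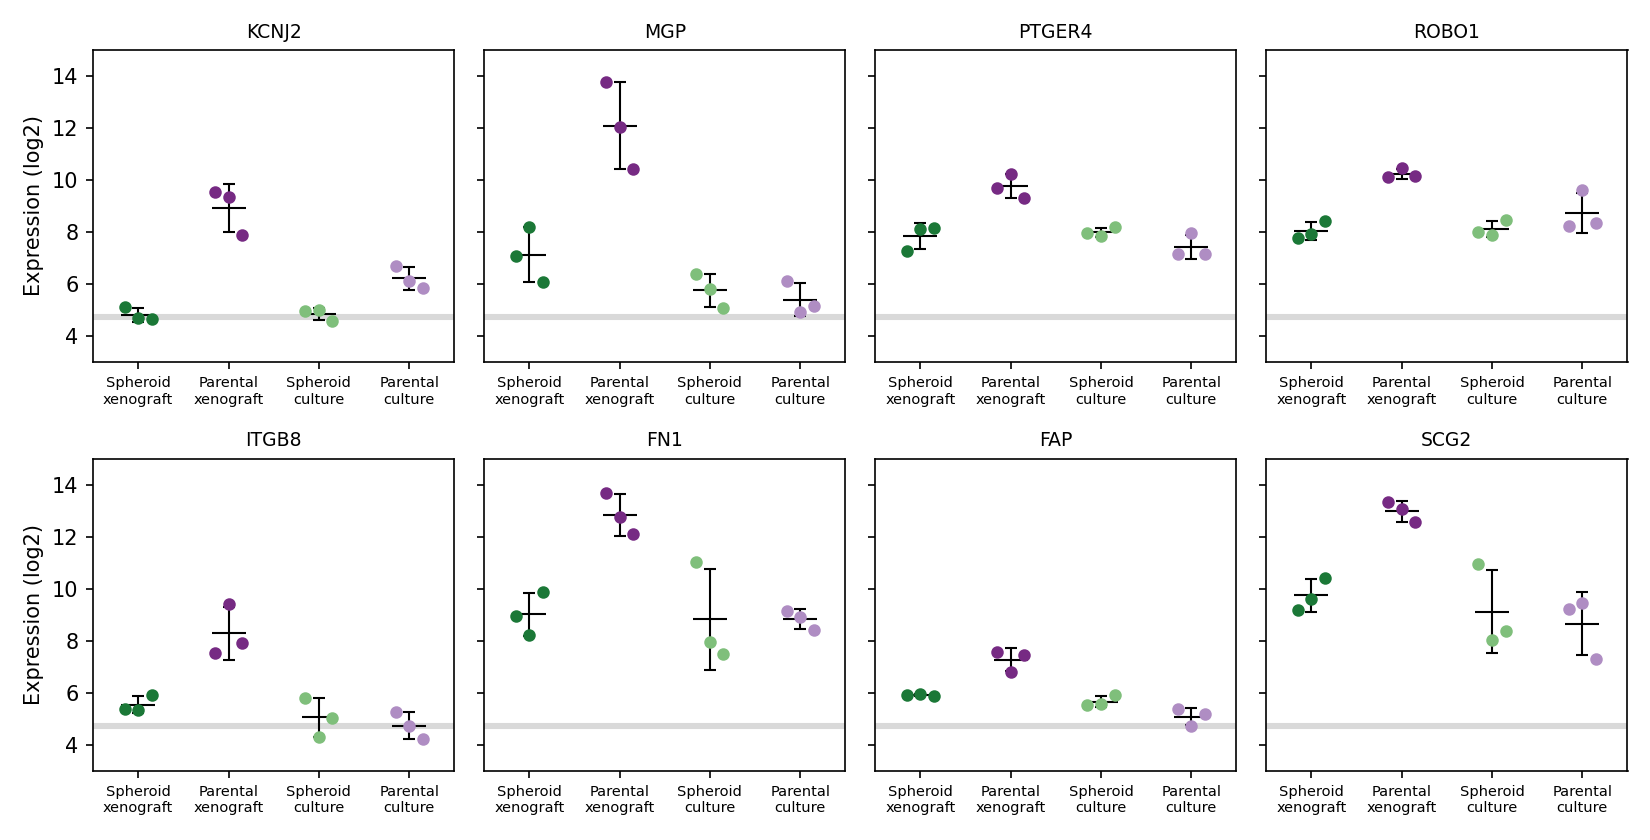
Log2 expression of the 8 genes most like SPARC in the 4 groups, 1 point per array, with mean and SD in black and the arrays' lower quartiles as a grey band. In each panel the parental xenografts lie above every other array, a likeness for which the genes were chosen, and MGP spreads from 10.43 to 13.78 within them.

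Partners of SPARC were taken from lists chosen with earlier results known, with 1 probe set per gene and p-values adjusted over all probe sets. Some of the collagens and laminins that SPARC binds were higher in parental xenografts than in parental culture: 3 of 10 measured matrix ligands were called higher and 0 lower, against a background of 2.92% of genes called in that comparison, 1.67% higher and 1.24% lower. All 10 had a positive difference, with a median of 0.53 against -0.01 over all genes. COL3A1, a fibrillar collagen chain, was 2.06 higher (SE 0.38, adjusted p = 0.0195), LAMC1, a laminin chain, 1.05 higher (SE 0.20, adjusted p = 0.0219) and COL5A2 0.89 higher (SE 0.14, adjusted p = 0.00915). COL5A2 averaged 4.56 in parental culture and was dim on 2 of those 3 arrays, so the size of its difference is uncertain. COL3A1 read 6.28, 7.71 and 7.88 in parental xenografts, in order of size, and 5.14 to 5.28 in parental culture. Between spheroid and parental xenografts 0 of 10 were called (background 0.126%) and 2 had an unadjusted p under 0.05, with a median of -0.15 against 0.02 over all genes. Spheroid xenografts against spheroid culture had 0 of 10 called (background 0.162%), 3 at unadjusted p under 0.05, and 6 positive and 4 negative differences (median 0.21 against -0.05). There COL3A1 averaged 6.61 in tumours and 5.34 in culture, LAMC1 10.36 and 9.68, and COL5A2 4.95 and 4.82. The COL3A1 and LAMC1 calls were lost without parental culture 3 or without parental xenograft 1 or 2 (adjusted p 0.0678 to 0.0807), COL3A1 also without parental culture 1 and 2 (0.105), and LAMC1 also with quantile normalisation again (0.0707) and with cyclic loess (0.0915). The mean of its probe sets gave COL3A1 a difference of 0.64.

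In a list of 12 proteases, whose action on SPARC itself was not examined, 1 was called higher in parental xenografts than in parental culture and 0 lower. The background was 2.92% of genes called, 1.67% higher. The median of the 12 was 0.70 against -0.01 over all genes. ADAMTS1, a secreted metalloprotease, read 5.06 to 5.39 in spheroid xenografts, 6.34 to 7.54 in parental xenografts, 5.31 to 5.79 in spheroid culture and 4.92 to 5.59 in parental culture. It was called higher in parental xenografts than in parental culture, by 1.65 (SE 0.28, adjusted p = 0.0126), and this call was lost without parental culture 3 (adjusted p = 0.0503) and without parental culture 1 and 2 (0.0602). Its difference between spheroid and parental xenografts, -1.67 (SE 0.28), missed the threshold at adjusted p = 0.0568. In that comparison limma called 0 of 12 proteases, 6 had an unadjusted p under 0.05, and the median was -0.66 against 0.02 over all genes. Across alternatives the adjusted p of ADAMTS1 between the xenografts ran from 0.00850 to 0.330. It stayed uncalled in 14 of 24 alternatives and was called in the rest, among them cyclic loess (limma adjusted p = 0.0317) and 1 probe set per gene (0.0365). MMP2 differed by -2.10 between the xenografts (SE 0.90, adjusted p = 0.752), with 7.76, 7.99 and 12.36 in parental xenografts, and without the highest of these, replicate 1, the difference was -0.60.

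Among 20 other matricellular proteins, 2 were called higher in spheroid than in parental culture (background 1.81% of genes, 0.587% higher and 1.22% lower), SPP1 (osteopontin) by 1.56 (SE 0.29, adjusted p = 0.0261) and THBS3, a thrombospondin, by 0.99 (SE 0.14, adjusted p = 0.00832). Parental xenografts against parental culture called 3 higher, SPP1 by 2.42 (SE 0.29, adjusted p = 0.00303), THBS3 by 1.85 (SE 0.14, adjusted p = 1.43e-04) and POSTN (periostin) by 0.84 (SE 0.16, adjusted p = 0.0199), the last being dim on 10 of 12 arrays. Between the xenografts 0 of 20 were called, with 4 at unadjusted p under 0.05, and between spheroid xenografts and spheroid culture 0 of 20 (background 0.162%), with 3 at unadjusted p under 0.05. THBS3 read 9.46 to 9.72 in spheroid xenografts, 9.80 to 9.99 in parental xenografts, 8.93 to 9.09 in spheroid culture and 7.80 to 8.21 in parental culture. Its spheroid minus parental difference was -0.35 in xenografts, and the difference of that from culture, -1.34 (SE 0.19, adjusted p = 0.0362), was the 1 of 20 called in the interaction (background 0.091% of genes, 0.0506% lower), and it was not called in 14 of 23 alternatives.

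Among 15 receptors and growth factor partners, 1 was called lower in spheroid than in parental culture (background 1.81% of genes, 1.22% lower). It was TGFB1, a growth factor that SPARC is known to regulate, with a difference of -1.01 (SE 0.17, adjusted p = 0.0171). Against parental culture, parental xenografts had 1 of the 15 called higher (background 2.92%, 1.67% higher), the integrin chain ITGAV, by 1.77 (SE 0.29, adjusted p = 0.0116). Among 7 FSTL1 partners, 1 was called higher in parental xenografts than in parental culture (background 2.92%, 1.67% higher). It was BMPR2, a bone morphogenetic protein receptor, by 2.13 (SE 0.39, adjusted p = 0.0186). Between spheroid xenografts and spheroid culture 0 of either list were called (background 0.162%), with 2 of the 15 and 1 of the 7 at unadjusted p under 0.05. There too BMPR2 stood higher in tumours, averaging 10.25 against 8.80, and so did ITGAV, with 11.42 against 10.64. Of the 9 measured follistatin-domain relatives, limma called 0 in every comparison, against 0.091% to 2.92% of all genes, so 0 of 9 is near the background. At most 1 of the 9 had an unadjusted p under 0.05. With only the arrays compared in the fit, every call between 2 groups of a partner gene given here was lost (adjusted p 0.0535 to 0.196), other than THBS3 in parental xenografts against parental culture. In culture, SPP1 lost its call without parental culture 3, spheroid culture 2 or 3 or spheroid xenograft 2 (0.0510 to 0.110) and with median centring (0.0600), TGFB1 without parental culture 3 or spheroid culture 2 or 3 (0.0523 to 0.0804), and THBS3 without spheroid culture 2 (0.0523). In parental xenografts, POSTN lost its call without parental culture 3 or parental xenograft 1 or 2 (0.0605 to 0.0764), without parental culture 1 and 2 (0.119) and with the mean of its probe sets (0.22, adjusted p = 0.428), and BMPR2 without parental culture 3 or any 1 of the parental xenografts (0.0502 to 0.0697).

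**Figure D5:**
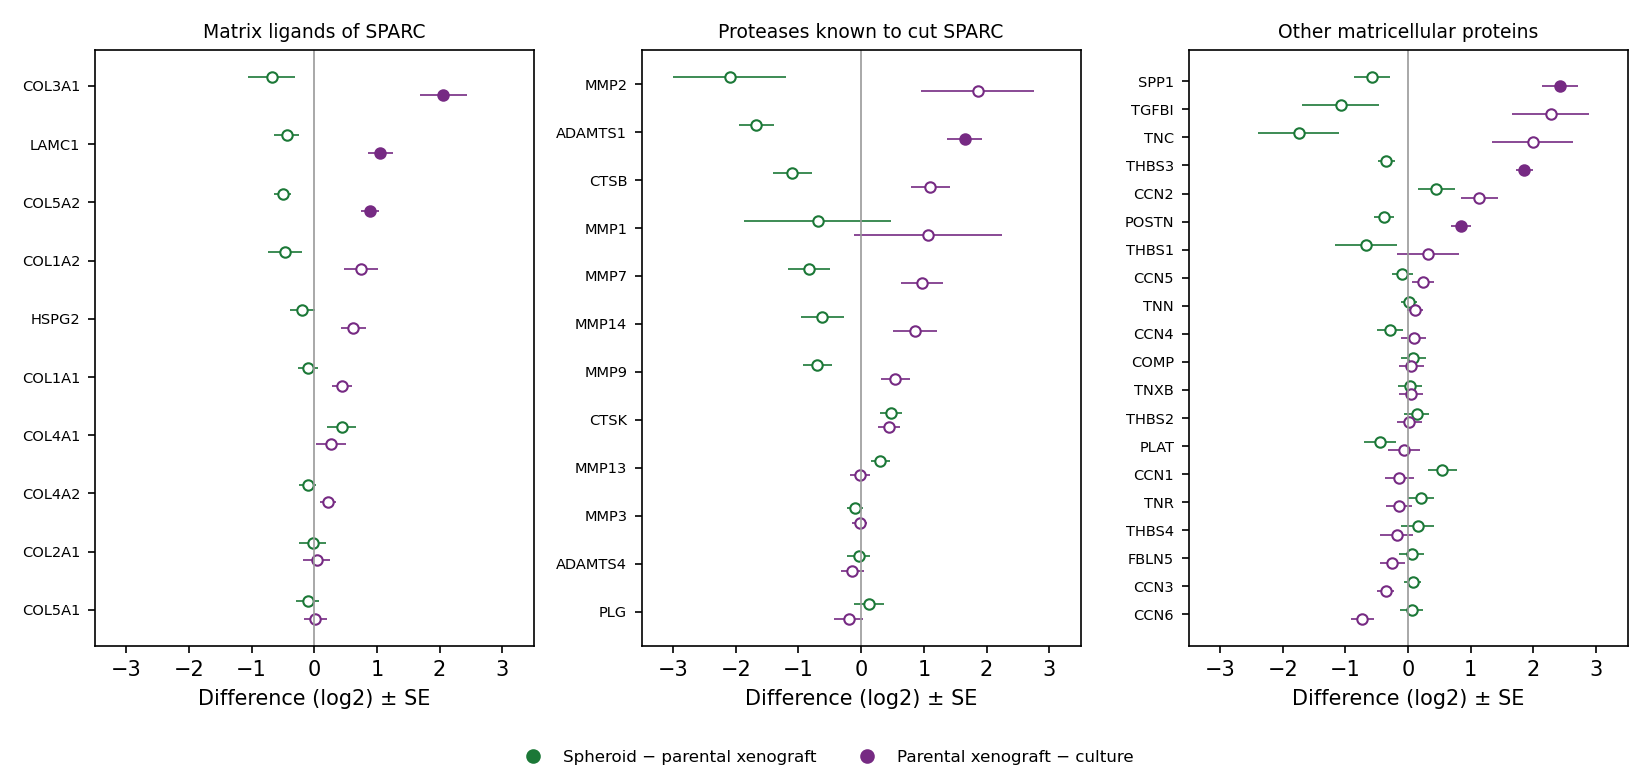
Log2 difference with its SE for the matrix ligands, proteases and other matricellular proteins, as spheroid minus parental xenograft (green) and parental xenograft minus parental culture (purple), filled where called and open where not. Both comparisons use the parental xenograft arrays, so points that mirror each other are not independent.

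Markers of cells that a tumour could take from its host were set beside SPARC. The mean level of the 12 fibroblast markers was 6.27 to 6.33 in spheroid xenografts, 6.20 to 6.59 in parental xenografts, 6.13 to 6.32 in spheroid culture and 5.69 to 6.05 in parental culture, and 3 of 12 (FAP, COL3A1 and POSTN) were called higher in parental xenografts than in parental culture (background 2.92% of genes, 1.67% higher). In that comparison the mean levels did not overlap, and 10 of the 12 had a positive and 2 a negative difference. Their median was 0.10 against -0.01 over all genes, with 5 at unadjusted p under 0.05. Between spheroid and parental xenografts the mean levels overlapped and 0 of 12 were called (background 0.126%, 3 at unadjusted p under 0.05). There 3 had a positive and 9 a negative difference (median -0.13 against 0.02). The FAP call was lost with only the arrays compared (adjusted p = 0.0563), and the settings that ended those of COL3A1 and POSTN are given above. Of the 3 defining fibroblast markers, LUM was dim on all 12 arrays, while DCN and COL1A1 were dim on none. DCN averaged 6.99 in spheroid xenografts, 6.96 in parental xenografts, 7.08 in spheroid culture and 6.80 in parental culture. COL1A1 averaged 8.52, 8.62, 8.53 and 8.17 in the same order. Endothelial, pericyte, myeloid, adipocyte and bone or cartilage lists had 0 called between parental xenografts and parental culture and 0 between spheroid and parental xenografts. In the first, limma's unadjusted p was under 0.05 for 1 endothelial, 1 pericyte and 1 bone or cartilage marker. In the second it was under 0.05 for 2 pericyte markers. Of their measured defining markers, only ADIPOQ, of adipocytes, was dim on all 12 arrays. CDH5, of endothelial cells, was dim on all 3 spheroid and all 3 parental xenografts, on 2 spheroid cultures and on 1 parental culture. The myeloid and the bone or cartilage list each had 2 of 3 defining markers measured. The mean level of the 10 endothelial markers was 5.24 to 5.46 in spheroid xenografts, 5.10 to 5.42 in parental xenografts, 5.31 to 5.51 in spheroid culture and 5.15 to 5.53 in parental culture. Between parental xenografts and parental culture 1 of the 10 had a positive and 9 a negative difference (median -0.09 against -0.01 over all genes). Between spheroid and parental xenografts 9 were positive and 1 negative (median 0.10 against 0.02). The mean of the 8 pericyte and smooth muscle markers was 6.50 to 6.68 in spheroid xenografts, 6.79 to 6.82 in parental xenografts, 6.48 to 6.80 in spheroid culture and 6.41 to 6.71 in parental culture. In this mean the parental xenografts did not overlap spheroid xenografts or parental culture, but its members did not move together. Between spheroid and parental xenografts 4 of the 8 had a positive and 4 a negative difference (median -0.05 against 0.02 over all genes), and between parental xenografts and parental culture 5 were positive and 3 negative (median 0.03 against -0.01). That of the 7 measured myeloid markers was 5.35 to 5.66 in spheroid xenografts, 5.29 to 5.70 in parental xenografts, 5.49 to 5.74 in spheroid culture and 5.17 to 5.70 in parental culture, with overlap throughout. RGS5, a pericyte marker, reached 9.65 in parental xenograft replicate 3, against 7.76 and 7.86 in the other parental xenografts. The part of host cells in the SPARC level was not tested, and neither was how far these human probe sets read the RNA of another species.

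The line's own epithelial markers split. EPCAM and CDH1 were dim on all 12 arrays, and KRT8, KRT18 and KRT19 on none. Of the 5 markers, 1 was called lower in spheroid than in parental culture (background 1.81% of genes, 1.22% lower). In parental xenografts against parental culture 2 of 5 were called lower (background 2.92%, 1.24% lower). KRT19 was not called, and averaged 5.49 in spheroid xenografts, 5.62 in parental xenografts, 5.37 in spheroid culture and 5.58 in parental culture. KRT8, a keratin, was lower in spheroid than in parental culture, with a difference of -1.43 (adjusted p = 0.0175) and lower in parental xenografts than in parental culture, with a difference of -1.77 (adjusted p = 0.00471). KRT18, its partner keratin, was lower in parental xenografts than in parental culture, with a difference of -1.71 (adjusted p = 0.0275). The culture call of KRT8 was lost without parental culture 3 or spheroid culture 2 or 3 (adjusted p 0.0574 to 0.109) and without parental culture 1 and 2 (0.0724), and the KRT18 call without parental culture 3 or parental xenograft 2 or 3 (0.0846 to 0.105) and with the replicate number as a block (0.0512). With only the arrays compared, all 3 keratin calls were lost, KRT8 in culture at 0.0958, KRT8 in parental xenografts at 0.0854 and KRT18 at 0.220.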

How the data were processed

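RNA was measured on 12 Affymetrix arrays, and 2 µg of total RNA was labelled per the labels' protocols. The values are log2 expression as deposited by the authors, whose processing notes name RMA and affy, an R package. No version, genome build or statement on joint normalisation was found in the labels. The table held 54675 probe sets, of which 62 controls were left out. The platform annotation, which can be old, gave 41097 probe sets 1 gene symbol, 1801 several and 11777 none, and genes were named only from the first.

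The deposited values were used as they are. A mean per group was fitted to all 54613 probe sets with limma 3.58.1 in R 4.3.3 (8 residual degrees of freedom, eBayes). Tests were two-sided, and a probe set was called when its p-value, adjusted by Benjamini-Hochberg across the 54613 of a comparison, was below 0.05. The number of arrays limits the precision: an exact permutation test of 3 against 3 cannot go below 0.1. The fit was tested on simulated data. The members, lists and alternatives were chosen with earlier results of these data known. Named are all members, the 8 genes most like SPARC, and list members called in a comparison (up to the 3 of largest difference). Lists use the probe set with the highest mean of each gene, and 19775 genes had one. Replicate numbers, given in the titles, were checked by the correlation of same-numbered arrays' deviations from their group means. It was over 0.1 in all 3 pairs of spheroid with parental xenografts (0.181, 0.218 and 0.464). All 3 pairs of spheroid xenografts with spheroid culture were also over 0.1 (0.287, 0.303 and 0.400), so a pairing by number is possible there. In either other comparison 1 of 3 pairs was over 0.1, so no pairing was considered there. Arrays of different numbers reached as much: 0.224 for parental xenograft 2 with spheroid xenograft 1, and 0.589 for parental culture 2 with parental xenograft 3. The correlation therefore does not establish that the numbers pair samples, and the main fit holds no pairing. Alternatives were other normalisations, filters, probe set rules, samples, covariates and moderation.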

Additional observations from a re-analysis of the deposited data

Results flagged for a closer look

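The spheroid to parental difference of THBS3 was not the same in tumours and in culture. Its level averaged 9.55 ± 0.15 in spheroid xenografts and 9.90 ± 0.09 in parental xenografts, against 9.03 ± 0.09 in spheroid culture and 8.05 ± 0.21 in parental culture (SD, n = 3 each). The interaction was -1.34 by limma (SE 0.19, adjusted p = 0.0362), so the spheroid cells were above the parental cells in culture and not in the xenografts. Over the alternatives the value ran from -1.58 to -1.21 and the adjusted p from 0.00880 to 0.162, and it was not called in 14 of 23 of them.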

How the results depend on the processing

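SPARC was selected on its levels, so the alternatives describe the size of its differences and are no support for its pattern. The xenograft difference of SPARC 200665_s_at ran from -4.32 to -2.91 over the 24 alternatives. The mean of both probe sets gave -0.13 in culture, -2.91 in xenografts, 2.89 for parental xenografts against culture and -2.78 in the interaction. Without 1 array, 212667_at ran from -1.81 to -1.15, 1.20 to 1.86 and -1.86 to -1.20 in these last 3. FSTL1 208782_at lost its calls with the mean of all probe sets and with only the arrays compared, which brought the relatives called to 0 in both comparisons, and to 0 to 1 without 1 array. Of the 8 genes most like SPARC, 1 was kept by Spearman's rho.

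The number of probe sets called moved more. For spheroid minus parental in culture (674) it was 1675 with quantile normalisation again, 1602 with that within culture and within xenografts, 1299 with cyclic loess, 14 with only the arrays compared, 319 without parental culture 1 and 2, 3102 with the array interquartile range as covariate, and 96 to 1238 without 1 array. In xenografts (49) it was 32 with median centring, 86 with a floor on level, 132 with only the arrays compared, 97 without parental culture 1 and 2, 322 with the covariate, 110 with an eBayes trend, and 5 to 144 without 1 array. For parental xenografts against culture (1276) it was 2051, 2328 and 767 with quantile, within-set quantile and median centring, 687 and 645 genes with 1 probe set per gene and their mean, 59 with only the arrays compared, 819 without parental culture 1 and 2, 4140 with the covariate, and 495 to 3216 without 1 array. For spheroid xenografts against culture (138) it was 222, 297 and 77 with quantile, within-set quantile and median centring, 4 and 7 genes with 1 probe set per gene and their mean, 469 with only the arrays compared, 279 without parental culture 1 and 2, 81 with the replicate block, 677 with the covariate, 207 with the trend, and 10 to 335 without 1 array. In the interaction (40) it was 190 with either quantile setting, 14 with median centring, 92 with cyclic loess, 77 with the floor, 89 without parental culture 1 and 2, 21 with the replicate block, 531 with the covariate, and 3 to 241 without 1 array. The causes were not tested. With parental culture 1 and 2 left out, the lone array is assumed to vary like the other groups.

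Among calls, 225 were higher and 449 lower in culture (median centring 104 and 360), but 727 and 419 without parental culture 2 and 1713 and 1389 with the covariate. They were 829 and 447 for parental xenografts against culture (quantile 1076 and 975, cyclic loess 832 and 795), but 516 and 754 without parental culture 1. For spheroid xenografts against culture they were 121 and 17 (quantile 171 and 51, cyclic loess 125 and 39), and in the interaction 18 and 22 (median centring 9 and 5, within-set quantile 106 and 84, cyclic loess 53 and 39, quantile 104 and 86, mean of a gene's probe sets 18 and 17, replicate block 11 and 10, and 88 and 38, 15 and 4, 11 and 8 and 5 and 4 without parental culture 1 or 3, spheroid culture 1 or spheroid xenograft 1). In the 2 comparisons where a pairing by number is possible but not established, no relative or list gene was called in the main fit. The replicate block thus had no such call to end there, and it called no relative. Its effects are shared by all groups, so it is not a paired test of those comparisons alone. In the other comparisons the block ended the call of KRT18 (adjusted p = 0.0512) and that of THBS3 in the interaction (0.0893). It left the count of relatives called there as it was. Its counts in culture, xenografts and parental xenografts against culture were 563, 34 and 1078. The interaction needs all groups, so it has no value with only the arrays compared, POSTN has none under the floor, and 212667_at has none with genes in place of probe sets.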
